A study of Mus musculus with 21 samples.

Results

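Antibodies against phosphatidylcholine, a membrane lipid exposed on dying red cells and bacteria, are a known product of mouse B-1 cells. They are built mostly from a pair of germline combinations, the heavy chain gene Ighv11-2 with the kappa light chain gene Igkv14-126, and Ighv12-3 with Igkv4-91. These 4 V genes were picked out by their GENCODE symbols among the 56953 genes counted, which held 183 Ighv and 160 Igkv genes. A V gene gives RNA in a B cell mainly after it has been joined to D and J segments, or to J segments in a light chain, so its RNA in a sorted population reflects how many cells carry it and how much each cell makes. In bulk RNA these cannot be told apart.

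The 21 libraries came from 3 B cell subsets sorted from the peritoneal cavity of C57BL/6 mice. WT mice gave 4 libraries of B-1a cells, 4 of B-1b and 2 of B-2 cells, and mice with global loss of TET2 (TET2-KO), an enzyme that oxidises methylcytosine, gave 4, 3 and 4 of the same. In the knockout, exons 8 to 10 of Tet2, the catalytic region, are deleted in the whole animal from an allele built as conditional, and the labels give no ages. The gate of B-1a cells included IgD-lo, CD23-lo, B220-lo and CD5+, B-1b cells were sorted by the same gate without CD5, and the gate of the B-2 cells is not given in the sources used here. Values are given as CPM, a library's counts scaled to the same total, and as a percentage of all Ighv counts, or all Igkv counts, in the library. Nothing in the labels says that libraries with one number came from one animal, and p-values measure the spread between these libraries.

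The germline sequences of the 4 V genes are shown because every value that follows rests on reads that match them and not another V gene. All lie on the GRCm39 assembly and have 2 exons, a leader exon and the V exon. Ighv11-2 (ENSMUSG00000096108.3) spans chr12:114011861-114012432 and Ighv12-3 (ENSMUSG00000076676.3) spans chr12:114330141-114330574, both on the minus strand. Igkv14-126 (ENSMUSG00000094345.3) spans chr6:67873156-67873626 on the plus strand and Igkv4-91 (ENSMUSG00000076532.4) spans chr6:68745539-68746087 on the minus strand. The last 290 bases of each V exon, which is exon 2, are printed 5′ to 3′ on the strand of the gene. Capitals mark the germline end of the V exon from the codon of the conserved cysteine, where the third complementarity-determining region begins. The stretches shown are chr12:114011861-114012150, chr12:114330141-114330430, chr6:67873337-67873626 and chr6:68745539-68745828, in the order of the lines.
Ighv11-2: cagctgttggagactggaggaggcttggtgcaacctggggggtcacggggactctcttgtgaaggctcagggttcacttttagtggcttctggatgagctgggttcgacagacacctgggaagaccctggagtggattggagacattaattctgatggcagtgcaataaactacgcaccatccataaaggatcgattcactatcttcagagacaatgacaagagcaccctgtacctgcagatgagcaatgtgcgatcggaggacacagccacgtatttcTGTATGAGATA
Ighv12-3: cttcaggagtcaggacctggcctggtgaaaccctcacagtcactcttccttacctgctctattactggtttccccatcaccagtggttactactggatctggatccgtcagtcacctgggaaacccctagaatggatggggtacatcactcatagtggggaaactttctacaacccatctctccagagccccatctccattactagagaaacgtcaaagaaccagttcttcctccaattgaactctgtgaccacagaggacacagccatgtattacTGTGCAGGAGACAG
Igkv14-126: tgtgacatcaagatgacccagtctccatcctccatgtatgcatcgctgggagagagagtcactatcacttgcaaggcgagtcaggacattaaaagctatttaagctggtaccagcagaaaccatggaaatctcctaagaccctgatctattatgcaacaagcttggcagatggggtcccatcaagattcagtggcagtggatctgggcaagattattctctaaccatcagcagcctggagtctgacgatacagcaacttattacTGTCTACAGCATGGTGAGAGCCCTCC
Igkv4-91: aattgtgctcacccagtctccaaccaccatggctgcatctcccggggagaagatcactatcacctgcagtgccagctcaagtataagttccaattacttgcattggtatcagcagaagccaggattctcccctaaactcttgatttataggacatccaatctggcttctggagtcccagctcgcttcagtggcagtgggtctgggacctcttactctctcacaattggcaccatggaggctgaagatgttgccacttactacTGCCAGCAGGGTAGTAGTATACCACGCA

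The V exons of Ighv11-2 and Ighv12-3 were 61.9% identical to each other and those of Igkv14-126 and Igkv4-91 were 66.7% identical. Ighv11-2 has a near copy, Ighv11-1, which differed at 4 of 307 bases of the V exon and shared an unbroken run of 162 bases with it. Reads inside such a run match both genes and could not be given to either. Over the 21 libraries Ighv11-1 received 238 counts against 79702 for Ighv11-2. The nearest gene to Igkv14-126 was Igkv14-111, with 27 mismatches in 298 bases and no shared run over 44 bases. Igkv4-91 had its closest relative in Igkv4-60, at 87.7% identity, and Ighv12-3 in Ighv3-2, at 80.4%. In a later GENCODE release than that of the counts, no exon of another annotated gene overlapped an exon of the 4 genes. The span of 1 other gene, Gm53771, overlapped that of Ighv12-3, and the counting did not use strand. The octamer of immunoglobulin promoters, ATGCAAAT or ATTTGCAT on the strand of the gene, occurred once in the 250 bases before the start codon of each of the 4. It began 108 bases before the start codon in Ighv11-2, 111 in Ighv12-3, 91 in Igkv14-126 and 106 in Igkv4-91. The same letters were present in 80.9% of 110 Ighv genes and 73.0% of 100 Igkv genes.

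Total counts ran from 9667187 to 24152518 per library, of which 9243 to 61893 fell on Ighv genes and 57915 to 235866 on Igkv genes. Macrophage markers summed to between 6555 and 29794 CPM. Tet2 itself stood at 7.20 to 25.3 CPM in the 10 WT libraries and 13.1 to 46.3 CPM in the 11 TET2-KO libraries. This overlap checks nothing, because the counts cover the whole gene and only part of it is deleted. The sort markers went against 5 labels. Fcer2a, which encodes CD23, was at 694 CPM in the library labelled B-1a WT 1 and 519 CPM in that labelled B-1b WT 2, a level near the 669 to 877 CPM of the TET2-KO B-2 libraries and far above the 5.08 to 76.1 CPM of the other B-1 libraries. In the library labelled B-2 WT 1 it was at 20.2 CPM. Cd5 was at 14.04 CPM in the library labelled B-1b WT 1 and at 1.41 CPM in that labelled B-1a WT 2, whereas B-1a WT 3 and WT 4 and the TET2-KO B-1a libraries held 16.7 to 23.3 CPM. Results that involve WT libraries are therefore given with and without those labelled WT 1 and WT 2.

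**Figure D1:**
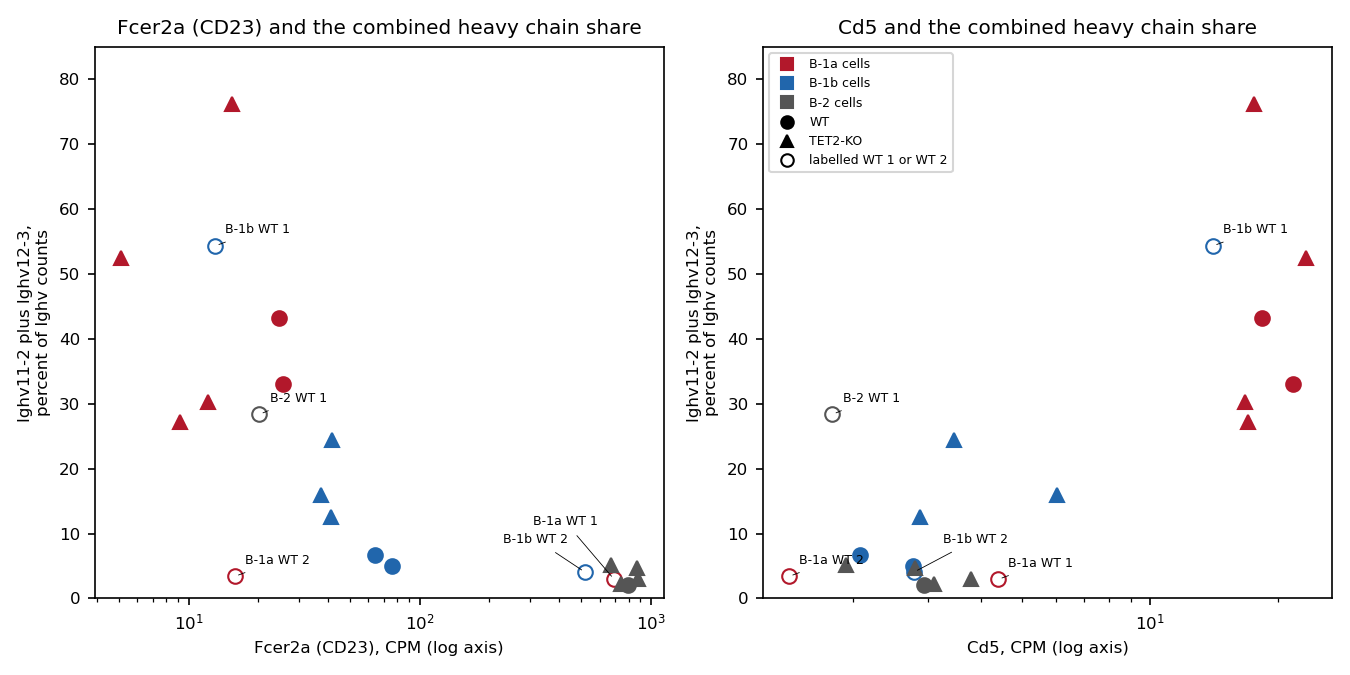
Combined share of Ighv11-2 and Ighv12-3 among Ighv counts in each of the 21 libraries, plotted against the CPM of Fcer2a (left) and Cd5 (right) on log axes, with color for the labelled subset and open symbols for the libraries labelled WT 1 or WT 2. The library labelled B-1a WT 1 held 694 CPM of Fcer2a and a combined share of 2.92%, and the library labelled B-1b WT 1 held 14.04 CPM of Cd5 and a combined share of 54.3%.

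Ighv11-2 and Ighv12-3 together made up 27.2 to 76.2% of all Ighv counts in the 4 B-1a libraries of TET2-KO mice, 12.5 to 24.4% in the 3 B-1b libraries and 2.29 to 5.11% in the 4 B-2 libraries. Igkv14-126 and Igkv4-91 together made up 20.4 to 40.0%, 10.3 to 16.8% and 1.78 to 3.79% of Igkv counts in the same libraries. The 3 subsets did not overlap on either chain. In WT mice, the combined heavy chain share was 43.2 and 33.1% in B-1a WT 3 and WT 4, 6.69 and 4.97% in B-1b WT 3 and WT 4, and 2.12% in B-2 WT 4. In the libraries whose sort markers went against their labels it was 2.92% in B-1a WT 1, 3.38% in B-1a WT 2, 54.3% in B-1b WT 1, 4.03% in B-1b WT 2 and 28.4% in B-2 WT 1.

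The heavy chain gene Ighv11-2 supplied 27.4, 6.94, 20.2 and 49.9% of Ighv counts in TET2-KO B-1a libraries 1 to 4. In TET2-KO B-1b libraries 1 to 3 it supplied 7.94, 3.71 and 10.4%, and in TET2-KO B-2 libraries 1 to 4 it supplied 4.87, 1.05, 4.00 and 2.08%. The lowest B-1a library stood below 2 of the 3 B-1b libraries, and every B-1a library stood above every B-2 library. In WT mice the share of Ighv11-2 was 1.601, 0.841, 28.5 and 19.1% in the libraries labelled B-1a 1 to 4. It was 21.4, 2.80, 1.88 and 1.12% in those labelled B-1b, and 11.1 and 1.61% in those labelled B-2 WT 1 and WT 4. Within each WT group the libraries labelled 1 or 2 set one end of the range or both.

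Its light chain partner Igkv14-126 put the libraries of each TET2-KO subset in the same order as Ighv11-2 did. It supplied 23.7, 10.3, 17.5 and 34.4% of Igkv counts in TET2-KO B-1a libraries 1 to 4. It supplied 6.97, 3.35 and 11.4% in the TET2-KO B-1b libraries and 3.08, 0.884, 2.81 and 1.70% in the TET2-KO B-2 libraries. As for Ighv11-2, B-1a library 2 was the lowest of its group. In WT mice the share was 1.41, 1.04, 24.4 and 17.5% in the libraries labelled B-1a, 17.5, 2.15, 2.06 and 1.20% in those labelled B-1b, and 8.16 and 1.06% in those labelled B-2.

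Ighv12-3 was far more uneven between libraries of one group. In TET2-KO B-1a libraries 1 to 4 it supplied 2.86, 69.3, 6.98 and 2.47% of Ighv counts and library 2 stood far above the others. The 95% Wilson interval of the 69.3% share ran from 68.8 to 69.7%, which covers counting error only, as reads copied by PCR are not independent molecules. In the TET2-KO B-1b libraries the share was 4.55, 20.7 and 5.65%, and in the TET2-KO B-2 libraries it was 0.236, 1.95, 0.635 and 0.216%. The library numbered 2 was the highest of each subset. In WT mice Ighv12-3 supplied 1.32, 2.54, 14.8 and 13.97% in the libraries labelled B-1a, 33.0, 1.23, 4.81 and 3.84% in those labelled B-1b, and 17.3 and 0.515% in those labelled B-2. B-1a WT 3 and WT 4 lay within 1 percentage point of each other and above 3 of the 4 TET2-KO B-1a libraries.

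Igkv4-91, the kappa partner of Ighv12-3, supplied 2.33, 10.1, 3.65 and 5.55% of Igkv counts in TET2-KO B-1a libraries 1 to 4. It supplied 3.33, 12.2 and 5.39% in the TET2-KO B-1b libraries. In the TET2-KO B-2 libraries it was at 0.704, 0.897, 0.788 and 0.787%, a narrow range below every other library. In WT mice the share was 2.07, 4.19, 11.7 and 17.3% in the libraries labelled B-1a, 34.5, 1.97, 5.10 and 5.32% in those labelled B-1b, and 23.8 and 1.24% in those labelled B-2. When the 6 groups were ordered by mean share, the ranges of neighbouring groups overlapped for all 4 genes, except for Igkv4-91, whose lowest group, TET2-KO B-2, stood apart from the group above it.

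**Figure D2:**
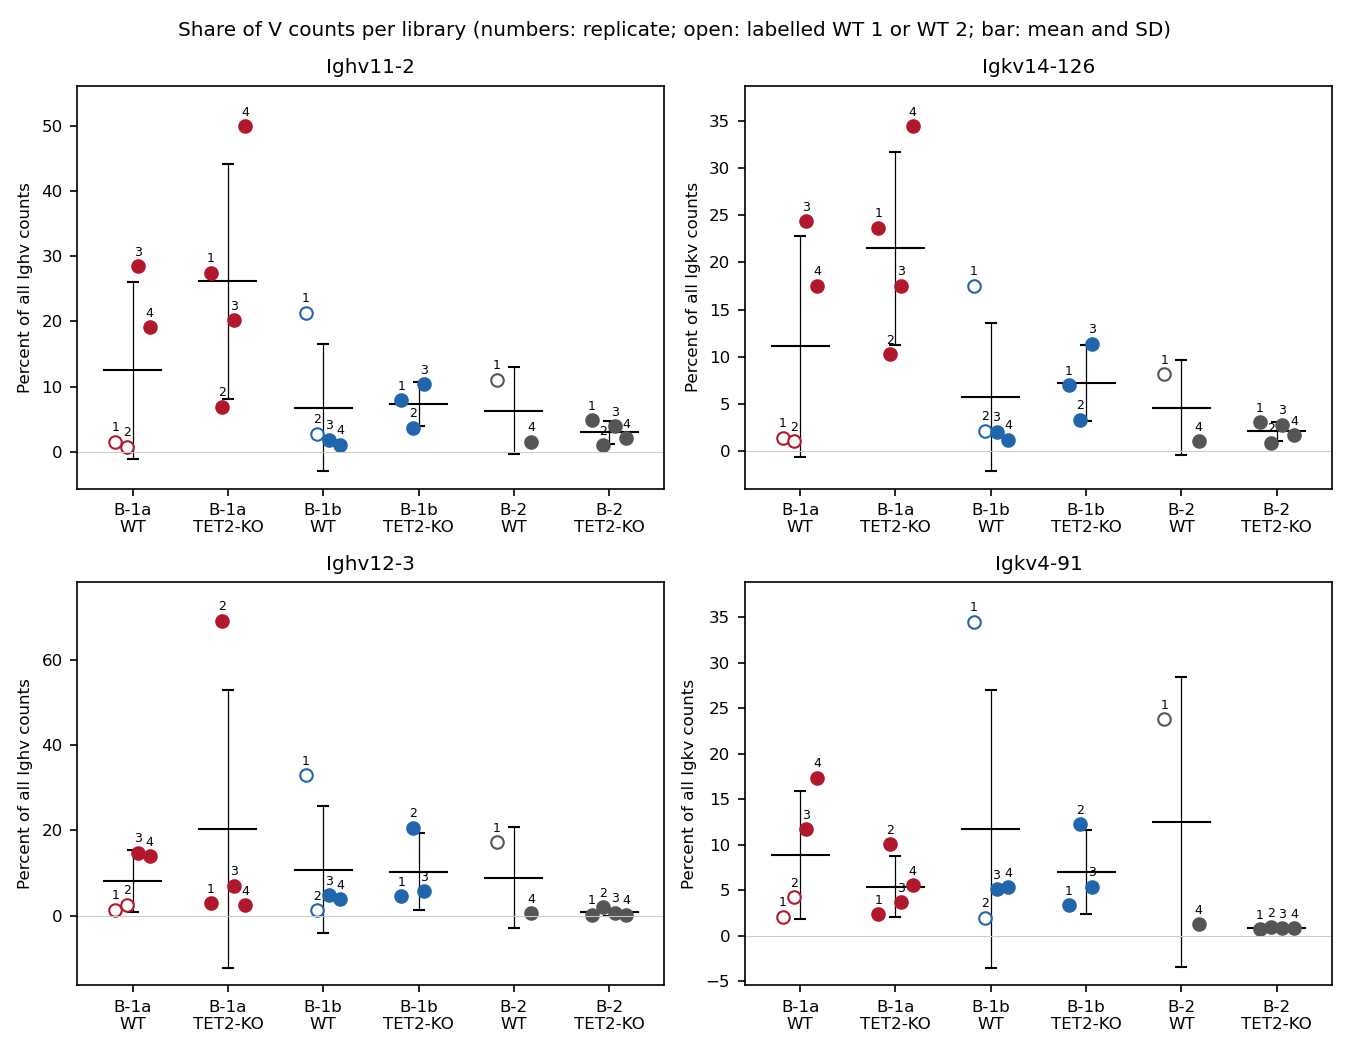
Share of each of the 4 V genes among all Ighv or all Igkv counts, in percent, for every library of the 6 groups, with the group mean and SD as a bar and the replicate number above each point. Open points are libraries labelled WT 1 or WT 2, and Ighv12-3 reached 69.3% in TET2-KO B-1a library 2.

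B-1a and B-2 cells of TET2-KO mice gave the comparison with the most libraries whose sort markers fitted the labels, and all 4 V genes were higher in B-1a cells. Ighv11-2 was at 585, 173, 409 and 428 CPM in B-1a libraries against 69.97, 16.2, 68.6 and 19.9 CPM in B-2 libraries, and every B-1a library stood above every B-2 library. The fitted difference was 9.97-fold, or 3.32 ± 0.58 on the log2 scale (SE, n = 4 and 4), with a p of 0.00645 in the quasi-likelihood test of edgeR, adjusted over all genes by Benjamini-Hochberg. Igkv14-126 was at 1752, 516, 1221 and 2306 CPM against 226, 68.5, 234 and 102 CPM, again without overlap, and was 10.04-fold higher (log2 3.33 ± 0.53 SE, edgeR adjusted p = 0.00394). The 2 members of this pair thus differed between the subsets by nearly the same factor.

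Ighv12-3 was at 60.9, 1728, 141 and 21.2 CPM in B-1a libraries against 3.39, 30.3, 10.9 and 2.07 CPM in B-2 libraries of TET2-KO mice. Library 4 of the B-1a cells lay below library 2 of the B-2 cells, so the CPM ranges overlapped. The fitted difference of 53.6-fold (log2 5.74 ± 1.53 SE, edgeR adjusted p = 0.0439) was the largest of the 4 and had the largest error. Its call ended when any one library other than B-1a library 1 was left out, with adjusted p-values between 0.0552 and 0.123, and without B-1a library 2 the log2 difference was 2.80. DESeq2 gave no adjusted p for Ighv12-3. Igkv4-91 was at 172, 504, 254 and 371 CPM against 51.5, 69.4, 65.6 and 47.2 CPM, without overlap, and was 6.52-fold higher (log2 2.71 ± 0.35 SE, edgeR adjusted p = 0.00124). Thus 4 of the 4 passed as higher in B-1a cells, where 4.74% of 15723 genes tested did, and 3 of the 4 did not overlap in CPM, where 4.66% did not in this direction. When no filter on low counts was used, the calls of Ighv11-2, Igkv14-126 and Ighv12-3 ended (edgeR adjusted p = 0.0716, 0.0518 and 0.167), that of Igkv4-91 held, and 2.43% of genes passed as higher. Other V genes mostly moved the other way. Of all genes, 4.25% passed as lower. Of 93 other Ighv genes tested, 1 passed as higher and 31 as lower (median log2 -2.06), and of 105 other Igkv genes 1 passed as higher and 50 as lower (median log2 -2.26), beside a median of 0.01 over all genes tested.

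As a share of V counts, the same comparison gave differences of 23.1 percentage points for Ighv11-2, 19.6 for Ighv12-3, 19.4 for Igkv14-126 and 4.60 for Igkv4-91. For each of the 4 the groups did not overlap, which held for 2.48% of 202 V genes in this direction. The two-sided exact permutation test gave p = 0.0286, the smallest that 4 libraries against 4 allow, and an adjusted p of 0.0406 over the 202 V genes with a mean of at least 10 counts. When every V gene with a count was tested, the adjusted p was 0.0570 in the same permutation test and none of the 4 passed. In this test 70.3% of V genes passed, nearly all of them lower in B-1a cells. Other measures also moved with the comparison. Vomeronasal receptor genes, a measure of background, summed to 45.7 to 156 CPM in B-1a and 158 to 995 CPM in B-2 libraries, and their part in the result was not tested. Macrophage markers summed to 6555 to 28594 CPM in B-1a and 7438 to 27580 CPM in B-2 libraries, which overlapped. When all 6 groups entered one edgeR fit, in which the WT libraries also set the spread, none of the 4 passed although the log2 differences ran from 2.76 to 5.80.

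In B-1b cells of TET2-KO mice, too, all 4 genes stood above B-2 cells without overlap in CPM, as did 4.87% of 17506 genes tested. Ighv12-3, at 94.4, 457 and 137 CPM, was 22.7-fold higher than in B-2 cells (log2 4.51 ± 0.91 SE, n = 3 and 4, edgeR adjusted p = 0.0387). Igkv4-91, at 229, 904 and 296 CPM, was 9.32-fold higher (log2 3.22 ± 0.46 SE, edgeR adjusted p = 0.00397). These 2 passed, where 1.34% of all genes passed as higher. Ighv11-2, at 165, 82.2 and 252 CPM, differed by 1.96 ± 0.56 on the log2 scale (edgeR adjusted p = 0.105), and Igkv14-126, at 479, 247 and 625 CPM, by 1.58 ± 0.45 (edgeR adjusted p = 0.103). The call of Ighv12-3 ended when any one library other than B-2 library 2 was left out, with adjusted p-values between 0.0629 and 0.153. With all 6 groups in one edgeR fit both calls ended, at adjusted p-values of 0.200 for Ighv12-3 and 0.167 for Igkv4-91. Without a filter on low counts that of Ighv12-3 ended (edgeR adjusted p = 0.186), and with the replicate number as a block that of Igkv4-91 (edgeR adjusted p = 0.0538). Ighv11-2 passed in edgeR with the replicate block (adjusted p = 0.0476). Igkv14-126 passed in edgeR without a filter (adjusted p = 3.95e-06), where 0.911% of genes passed as higher, and in DESeq2 (adjusted p = 0.00663), where 2.32% did. Plasma cell markers summed to 404 to 451 CPM in B-1b and 212 to 312 CPM in B-2 libraries, and Ighm, the constant gene of IgM, stood at 15997 to 17429 CPM against 6406 to 11578 CPM. Neither overlapped, and their part in the result was not tested. As shares, Ighv12-3, Igkv14-126 and Igkv4-91 did not overlap with B-2 cells, as 8.21% of 207 V genes did in this direction, and none of the 4 passed, as 0% of V genes did, because the smallest p that 3 libraries against 4 allow in the exact permutation test is 0.0571.

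B-1a and B-1b cells of TET2-KO mice were set against each other in 4 and 3 libraries. Igkv14-126 was 3.34-fold higher in B-1a cells (log2 1.74 ± 0.44 SE) and Ighv11-2 was 2.54-fold higher (log2 1.35 ± 0.41 SE). The adjusted p in edgeR was 0.574 and 0.926, so neither passed. Igkv4-91 went the other way, at log2 -0.49 ± 0.52, and Ighv12-3 had a log2 difference of 1.27 ± 1.32, within its own error. In edgeR 0 of the 4 passed, as did 0% of 14634 genes, and 2 of the 4 had an unadjusted p under 0.05, as did 3.68% of all genes. Without a filter on low counts edgeR called Ighv11-2 (adjusted p = 1.99e-05) and Igkv14-126 (adjusted p = 3.09e-09), where 0.263% of genes passed. DESeq2, in which 0.490% of genes passed, called Igkv14-126 (adjusted p = 0.00753), neither Ighv11-2 nor Igkv4-91, and gave no adjusted p for Ighv12-3. Without B-1a library 2 the log2 difference of Ighv12-3 was -1.65, and without B-1b library 2 that of Igkv4-91 was 0.45. The libraries of this comparison deviated together by number, and with the replicate number as a block 0 of the 4 and 45 of all genes passed in edgeR, at adjusted p-values of 0.0582 for Igkv14-126 and 0.110 for Ighv11-2. Most other V genes had lower values in B-1a cells. Of 89 other Ighv genes, 81 were lower (median log2 -2.09), and of 99 other Igkv genes, 87 were lower (median log2 -1.58), beside a median of 0.03 over all genes, and none of these V genes passed.

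In WT mice the comparison of B-1a with B-1b cells turned on the libraries labelled WT 1 and WT 2. With all 8 libraries, the log2 differences were 0.34 ± 1.41 for Ighv11-2, 0.44 ± 1.34 for Igkv14-126, -0.92 ± 1.26 for Ighv12-3 and -0.92 ± 1.10 for Igkv4-91 (SE). In edgeR 0 of the 4 passed, and none had an unadjusted p under 0.05, as 1.86% of genes had. DESeq2 called 0 of the 4, beside 1 of all genes. With B-1a WT 3 and WT 4 against B-1b WT 3 and WT 4 alone, all 4 genes were higher in B-1a cells. Ighv11-2 was at 669 and 421 CPM against 39.6 and 27.02 CPM (log2 4.16 ± 0.36 SE, n = 2 and 2, edgeR adjusted p = 0.00586). Ighv12-3 was at 346 and 308 CPM against 101 and 92.4 CPM (log2 1.88 ± 0.15 SE, edgeR adjusted p = 1.13e-06), and Igkv4-91 at 1145 and 1275 CPM against 406 and 366 CPM (log2 1.77 ± 0.15 SE, edgeR adjusted p = 3.03e-06). Igkv14-126 was at 2383 and 1289 CPM against 164 and 82.9 CPM (log2 4.01 ± 0.72 SE), and its edgeR adjusted p was 0.197. Thus 3 of the 4 passed as higher, where 2.09% of 15097 genes did. Macrophage markers summed to 27327 and 29794 CPM in these B-1a libraries against 15672 and 14870 CPM in the B-1b libraries, and T cell markers to 49.5 and 60.9 CPM against 12.1 and 13.7 CPM, and their part in the result was not tested.

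The question behind the knockout is whether loss of TET2 changes V gene use in each subset. In B-1a cells, Igkv4-91 was at 172, 504, 254 and 371 CPM in TET2-KO libraries and at 198, 388, 1145 and 1275 CPM in WT libraries. Its log2 difference was -1.27 ± 0.56 (SE, n = 4 and 4), with an unadjusted p of 0.0482 and an edgeR adjusted p of 0.628. Without the libraries labelled WT 1 and WT 2 every TET2-KO library lay below both WT libraries, as for 5.21% of 15328 genes, and the log2 difference was -1.94 ± 0.41 with an edgeR adjusted p of 0.421. Ighv11-2 had a log2 difference of 0.39 ± 0.92, Igkv14-126 of 0.46 ± 0.88 and Ighv12-3 of 1.46 ± 1.30. Without WT 1 and WT 2 these became -0.55 ± 0.40, -0.46 ± 0.49 and 0.65 ± 1.55, so the sign of the first pair turned. In edgeR 0 of the 4 passed, where 0.0503% of 13923 genes did. One of the 4 had an unadjusted p under 0.05, as did 7.85% of genes, and DESeq2 called 0 of the 4, beside 189 of all genes. Without TET2-KO B-1a library 2, the log2 difference of Ighv12-3 was -1.46. Most other V genes had lower values in the knockout, with 83 of 93 other Ighv genes below WT (median log2 -2.67) and 88 of 102 other Igkv genes below WT (median log2 -2.41), beside a median of 0.02 over all genes. Of them 1 Ighv and 5 Igkv genes passed. Without the libraries labelled WT 1 and WT 2 these calls ended, as 0 of all genes passed, against 7 with all libraries. The medians and the counts of V genes below WT include B-1a WT 1 and WT 2, whose sort markers went against their labels. They were not taken without these libraries, so they cannot be read as an effect of TET2 loss alone.

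In B-1b cells, TET2-KO libraries held Igkv4-91 at 229, 904 and 296 CPM and WT libraries at 3969, 190, 406 and 366 CPM. The log2 difference was -1.70 ± 1.12 (SE, n = 3 and 4, edgeR adjusted p = 0.839). For Ighv11-2 it was -0.62 ± 1.09, for Ighv12-3 -0.73 ± 1.17 and for Igkv14-126 -0.85 ± 1.06. Without the libraries labelled WT 1 and WT 2, all 4 differences turned positive. They were then 2.26 ± 0.43 for Ighv11-2, 1.27 ± 0.67 for Ighv12-3, 1.81 ± 0.44 for Igkv14-126 and 0.33 ± 0.59 for Igkv4-91, with edgeR adjusted p-values from 0.905 to 0.999. The unadjusted edgeR p was 0.00117, 0.100, 0.00412 and 0.597 in that order, and 0 of all genes passed. With all libraries, 0 of the 4 passed in edgeR, as did 0% of 14368 genes. None then had an unadjusted p under 0.05, as 5.48% of genes had. DESeq2 did not call Ighv11-2 (adjusted p = 0.935) and gave no adjusted p for the other members, beside 60 calls over all genes.

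In B-2 cells, only 2 WT libraries were set against 4 TET2-KO libraries, and one of them, labelled B-2 WT 1, had the low Fcer2a level given above. Igkv4-91 was at 2253 and 96.3 CPM in WT and 47.2 to 69.4 CPM in TET2-KO libraries, without overlap, as 1.79% of genes were in this direction. Its log2 difference was -4.80 ± 0.95 (SE), with an edgeR adjusted p of 0.531 and an adjusted p of 0.0267 in DESeq2, where 0.855% of genes passed. Without B-2 WT 1 it was -0.89 ± 0.36, in a fit where the lone WT library is assumed to vary like the TET2-KO libraries. The differences of Ighv11-2 (-2.26 ± 0.97), Ighv12-3 (-4.82 ± 1.39) and Igkv14-126 (-1.84 ± 0.85) became 0.79 ± 0.88, 0.43 ± 1.13 and 0.83 ± 0.74. In edgeR 0 of the 4 passed, as did 0% of 19786 genes, and 3 had an unadjusted p under 0.05, as did 8.86% of genes. DESeq2 called 1 of the 4.

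The B-1a and B-1b effects of TET2-KO were also compared directly. The difference between them was 1.01 ± 1.67 on the log2 scale for Ighv11-2, 1.30 ± 1.61 for Igkv14-126, 2.19 ± 2.09 for Ighv12-3 and 0.42 ± 1.36 for Igkv4-91 (SE). In edgeR 0 of the 4 passed, and none had an unadjusted p under 0.05, as 1.57% of 15972 genes had. DESeq2 called 0 of the 4, beside 1 of all genes. Without a filter on low counts edgeR called Ighv12-3 (adjusted p = 1.79e-09) and Igkv14-126 (adjusted p = 0.0105), where 0.345% of genes passed. Without the libraries labelled WT 1 and WT 2 all 4 values turned negative, with edgeR adjusted p-values of 0.9999. They were -2.81 ± 0.62 for Ighv11-2, -2.27 ± 0.71 for Igkv14-126, -2.27 ± 0.81 for Igkv4-91 and -0.62 ± 2.16 for Ighv12-3. The unadjusted edgeR p was 0.000648, 0.00775, 0.0163 and 0.782 in that order, and 0 of all genes passed. As shares of V counts, none of the 4 passed the exact permutation test of TET2-KO against WT in B-1a cells. Of 207 V genes, 0% passed there. None of the 4 had an unadjusted p under 0.05, as 40.6% of V genes had. Adjusted p-values ran from 0.333 to 0.854 in B-1a, 0.933 to 0.990 in B-1b and 0.786 in B-2 cells. In B-1b cells 3 libraries against 4 cannot go below a p of 0.0571. In B-2 cells 4 against 2 cannot go below 0.133. No V gene could pass in either subset, so the test decides nothing there.

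**Figure D3:**
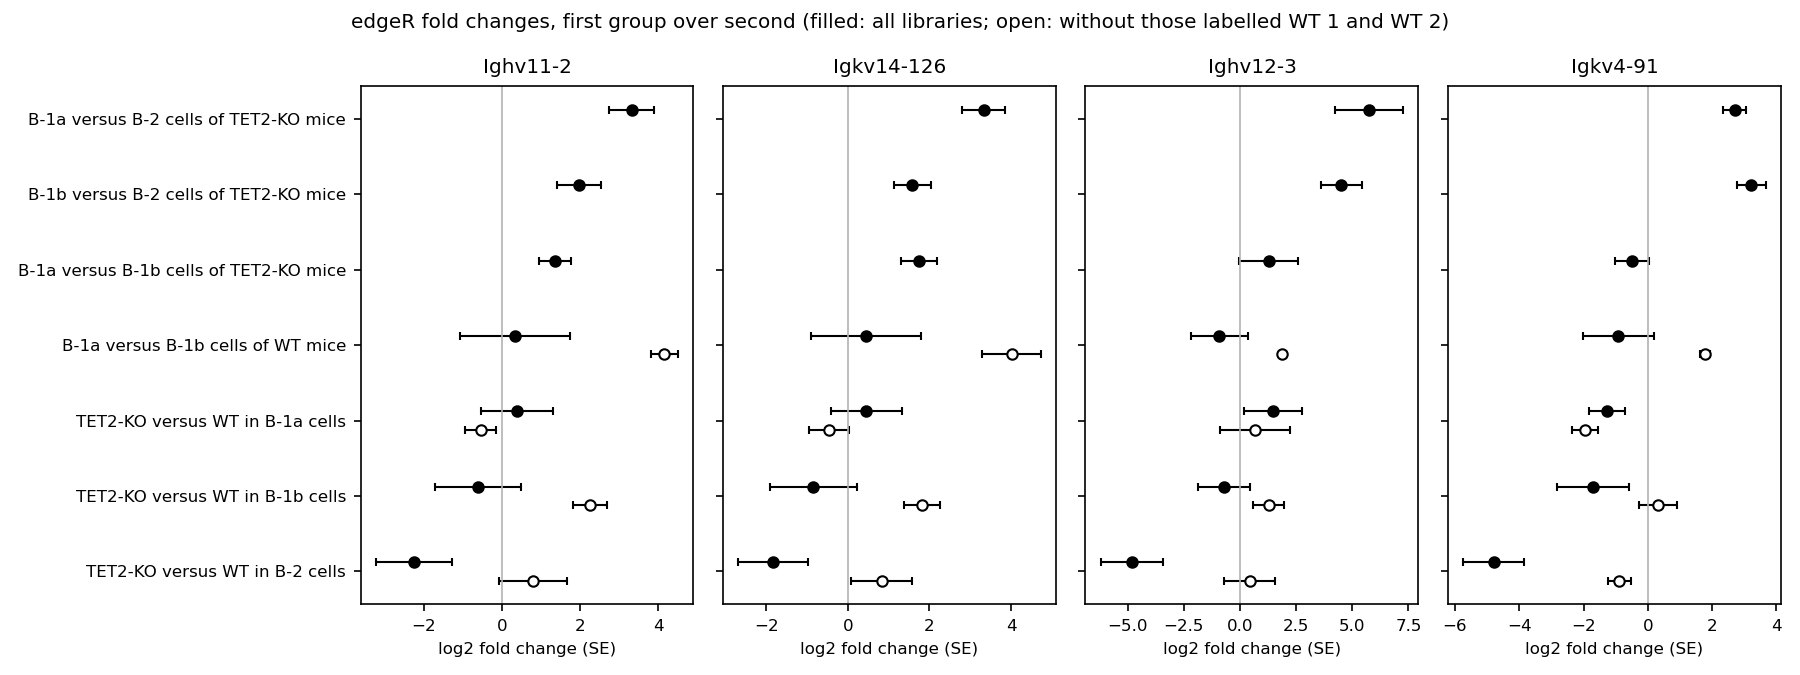
Log2 fold changes of the 4 V genes with their SE from edgeR, first group over second, in 7 comparisons, with filled points for all libraries and open points for fits without those labelled WT 1 and WT 2. In B-1b cells the TET2-KO effect of Ighv11-2 went from -0.62 to 2.26 when those libraries were left out.

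An antibody needs both of its chains, so the share of a heavy chain gene can be set beside that of the kappa gene it is known to pair with. Across the 8 B-1a libraries the log2 shares of Ighv11-2 and Igkv14-126 had a Pearson r of 0.990 and a Spearman rho of 0.976, with permutation p-values of 9.9e-05 and 0.000397 (adjusted over 12 relations, 0.00119 and 0.00238). In the 7 B-1b libraries r was 0.990 and rho 1.00 (permutation p = 0.000397 for both, adjusted 0.00238). In the 6 B-2 libraries r was 0.992 and rho 1.00 (permutation p = 0.00278 for both, adjusted 0.0107 and 0.0111). Without the 2 libraries farthest from the median of Ighv11-2, r was 0.991 in B-1a, 0.979 in B-1b and 0.978 in B-2 cells. In B-1a cells those 2 were the libraries labelled WT 1 and WT 2. Over the other 6 the permutation p, adjusted over the B-1a relations only, was 0.0222 for r and 0.0667 for rho, which was 0.943. The B-1b relations include the libraries labelled WT 1 and WT 2, and the B-2 relations include B-2 WT 1. The sort markers of these libraries went against their labels, and too few libraries were left without them for a correlation.

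For Ighv12-3 and Igkv4-91 the relation was looser. The Pearson r was 0.766 over the B-1a libraries, 0.956 over those of B-1b cells and 0.892 over those of B-2 cells, and the Spearman rho was 0.690, 0.893 and 0.771. The permutation p of r was 0.0312, 0.00357 and 0.0917 (adjusted 0.0750, 0.0107 and 0.183), and that of rho was 0.0694, 0.0123 and 0.103 (adjusted 0.167, 0.0369 and 0.188). Without the 2 libraries farthest from the median of Ighv12-3, r was 0.782, 0.879 and 0.514, so in B-2 cells the relation rested on B-2 WT 1 and TET2-KO library 2. Over the 6 B-1a libraries left without those labelled WT 1 and WT 2, r was 0.665 and rho 0.600. The permutation p was then 0.139 for r and 0.242 for rho (adjusted over the B-1a relations only, 0.185 and 0.322). The crossed combinations, Ighv11-2 with Igkv4-91 and Ighv12-3 with Igkv14-126, had r between 0.330 and 0.679 in the 3 subsets, with adjusted permutation p-values from 0.309 to 0.427. Over all 21 libraries, among 122 Igkv genes the one whose log2 CPM ran most like that of Ighv11-2 was Igkv14-126 (r = 0.988), and for Ighv12-3 it was Igkv4-91 (r = 0.867). Among 117 Ighv genes the same partners came first in return. These last values describe libraries that share subset and genotype and carry no test.

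**Figure D4:**
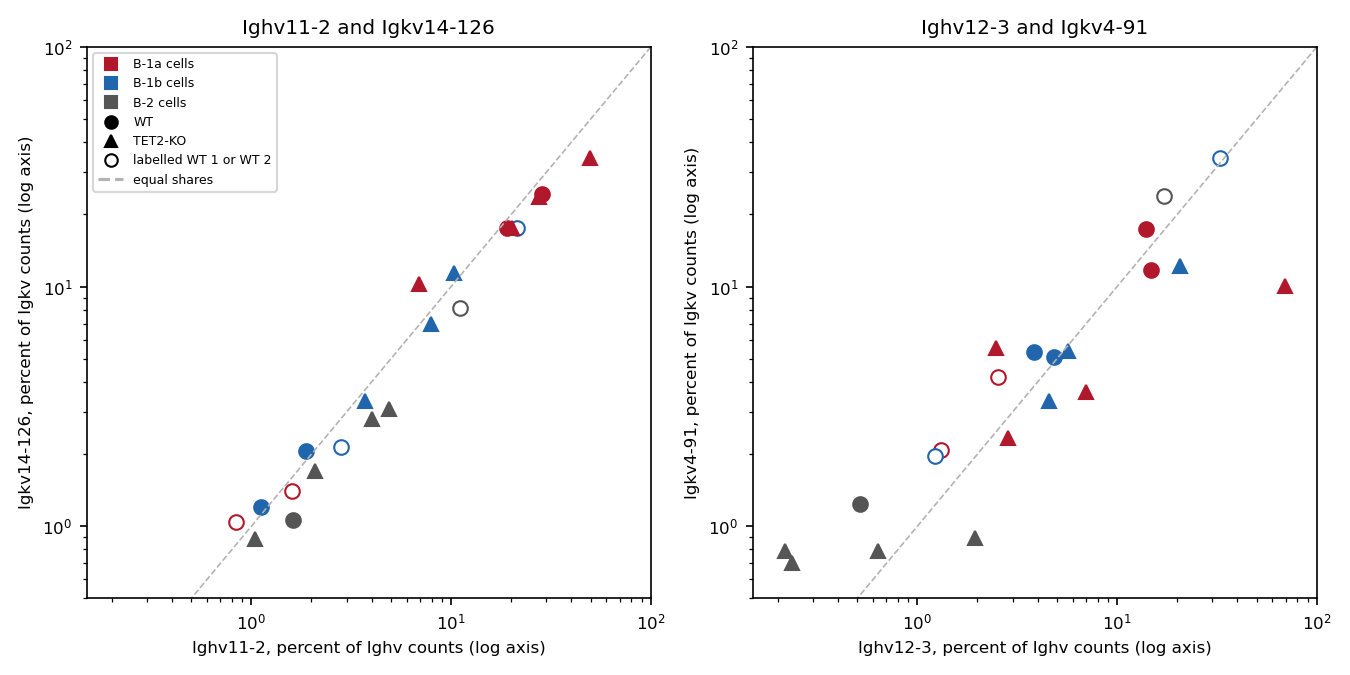
Share of Ighv11-2 among Ighv counts against that of Igkv14-126 among Igkv counts (left), and Ighv12-3 against Igkv4-91 (right), in percent on log axes for 21 libraries, with the dashed line at equal shares. The first pair lies close to the line throughout, and on the right TET2-KO B-1a library 2 lies far from it, with 69.3% on the heavy and 10.1% on the kappa axis.

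The size of the shares also matched in the first pair. The share of Ighv11-2 divided by that of Igkv14-126 was between 0.674 and 1.58 in every library. The share of Ighv12-3 divided by that of Igkv4-91 was between 0.275 and 2.18 in 20 libraries and 6.89 in TET2-KO B-1a library 2. There Ighv12-3 held 69.3% of Ighv counts, and the leading kappa gene was Igkv5-48 with 36.8% of Igkv counts. Igkv4-91 held 10.1% in that library, its highest value among the TET2-KO B-1a libraries. In TET2-KO B-1a libraries 1, 3 and 4 the leading kappa gene was Igkv12-89, with 37.1, 55.6 and 45.5%, and Igkv14-126 came next in all 3 when counts were divided by gene length.

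The 2 genes of each chain were also compared by counts per kilobase, which correct for gene length only. Reads that match both Ighv11-2 and Ighv11-1 were not counted, so a ratio of 1 need not mark equal RNA. These ratios describe V gene RNA and do not show which chains were paired or what they bind. In B-1a WT 3 and WT 4, Ighv11-2 stood at 1.48 and 1.05 times the level of Ighv12-3. In TET2-KO B-1a libraries 1 to 4 the ratio was 7.36, 0.0767, 2.21 and 15.5, with values on both sides of the WT values. These are 4 libraries against 2, so the widths of the ranges cannot be compared. In TET2-KO B-1b libraries 1 to 3 it was 1.34, 0.138 and 1.40, and in TET2-KO B-2 libraries 1 to 4 it was 15.8, 0.410, 4.83 and 7.35. Library 2 had the lowest ratio of each subset and the other libraries were all above 1. On the kappa side the ratio of Igkv14-126 to Igkv4-91 was 10.2, 1.02, 4.80 and 6.21 in the TET2-KO B-1a libraries and 2.08 and 1.01 in B-1a WT 3 and WT 4. It was 2.09, 0.273 and 2.11 in the TET2-KO B-1b libraries and 4.38, 0.986, 3.56 and 2.15 in the TET2-KO B-2 libraries, with library 2 lowest each time. B-1b WT 3 and WT 4 had heavy chain ratios of 0.299 and 0.224 and kappa ratios of 0.405 and 0.226. Ighv12-3 and Igkv4-91 thus had the higher counts per kilobase there.

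**Figure D5:**
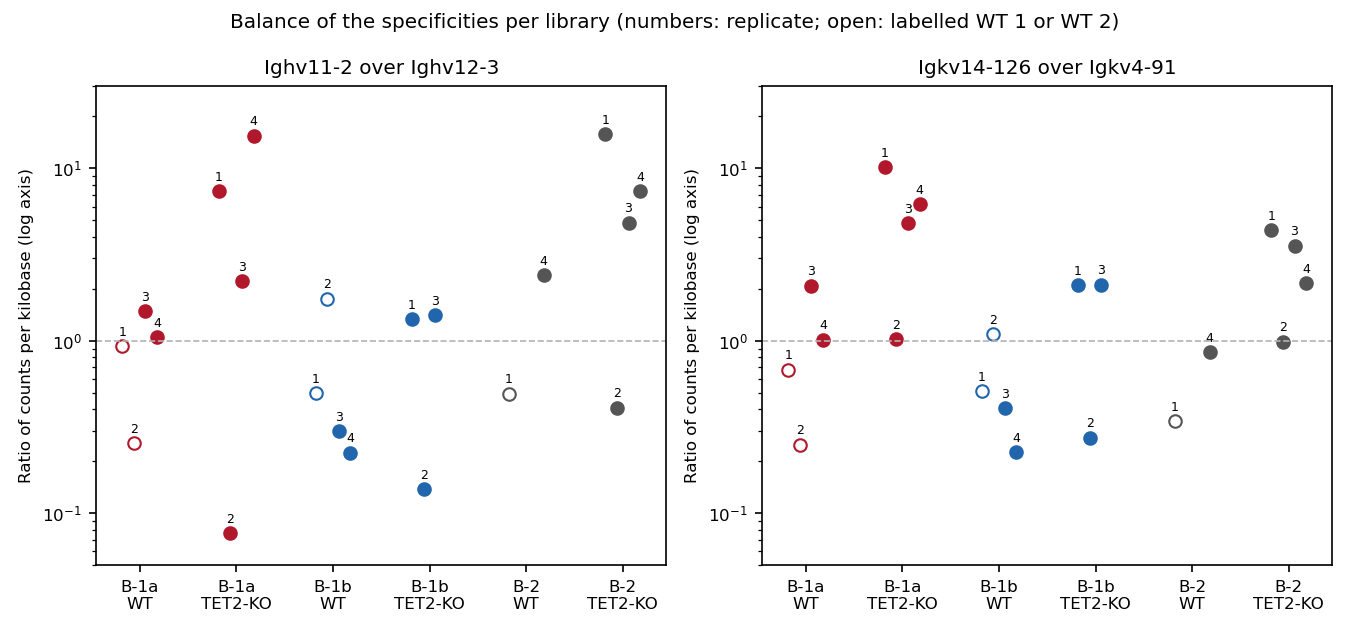
Ratio of Ighv11-2 to Ighv12-3 (left) and of Igkv14-126 to Igkv4-91 (right) in counts per kilobase, on a log axis, for every library of the 6 groups with its replicate number. The library numbered 2 was the lowest of each TET2-KO subset on both chains, at 0.0767 in B-1a cells on the left.

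Ranked per length among all Ighv genes of a library, Ighv11-2 and Ighv12-3 took places 1 and 2 in B-1a WT 3 and WT 4, and Ighv11-2 took places 1, 2, 3 and 1 in TET2-KO B-1a libraries 1 to 4. In TET2-KO B-2 libraries 1 to 4 Ighv11-2 took places 2, 41, 7 and 26, and Ighv12-3 ranked between 17 and 75. By mean share per group, Ighv11-2 led the heavy chain genes in B-1a WT (12.5%) and B-1a TET2-KO (26.1%). Without the libraries labelled WT 1 and WT 2 its mean share in B-1a WT was 23.8%. Ighv12-3 led in B-1b WT (10.7%) and B-2 WT (8.88%), in each of which the library labelled WT 1 held the highest value. Ighv6-3 led in B-1b TET2-KO (15.5%) and B-2 TET2-KO (4.56%). Among kappa genes, Igkv14-126 led in B-1a WT (11.1%) and Igkv4-91 in B-1b WT (11.7%) and B-2 WT (12.5%). Igkv12-89 led in B-1a TET2-KO (35.5%), and Igkv1-117 in B-1b TET2-KO (7.50%) and B-2 TET2-KO (7.43%). The WT means include the libraries labelled WT 1 and WT 2. In B-1a WT 3 and WT 4 Igkv14-126 held 24.4 and 17.5%. In B-1b WT 3, B-1b WT 4 and B-2 WT 4 Igkv4-91 held 5.10, 5.32 and 1.24%. Igkv1-117 led per length in those 3 libraries, with 10.2, 9.70 and 7.34% of Igkv counts.

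Within their own V gene families, Ighv11-2 took 99.7% and Ighv12-3 took 99.97% of the counts of 2 and 3 genes. Ighv11-1 had a mean of 0.71 CPM and Ighv12-1 of 0.047 CPM, the highest of the other genes of these families. Igkv14-126 took 74.1% of the counts of 8 Igkv14 genes, and Igkv14-111 followed with a mean of 172 CPM and up to 13.3% of Igkv counts. Igkv4-91 took 54.6% of the counts of 33 Igkv4 genes, and Igkv4-59 followed with a mean of 81.6 CPM and at most 1.66%. Between B-1a and B-2 cells of TET2-KO mice, where Igkv4-91 was higher, 13 of 30 other Igkv4 genes tested passed as lower and none as higher (median log2 -2.29), and 2 of 4 other Igkv14 genes passed as lower.

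The V genes of the T15 antibody, which binds phosphorylcholine and marks another B-1 specificity, were low and distributed in another way than Ighv11-2 and Igkv14-126. Ighv7-1 was at 2.88, 1.63, 0.555 and 5.08 CPM in TET2-KO B-1a libraries and 21.6, 13.6 and 35.3 CPM in TET2-KO B-1b libraries. Igkv7-33 was at 1.56, 0.651, 0.431 and 0.439 CPM against 14.9, 24.8 and 11.1 CPM. Both were lower in every B-1a than in every B-1b library, as 3.78% of genes were, while Ighv11-2 and Igkv14-126 had higher means in B-1a cells. Igkv4-91, like the T15 genes, had a lower mean in B-1a than in B-1b cells, at 325 against 477 CPM. The mean of Ighv12-3 was higher in B-1a cells, at 488 against 230 CPM, but its log2 difference was -1.65 without B-1a library 2. Against B-2 cells of TET2-KO mice, both T15 genes passed as higher in B-1b cells, by log2 2.74 ± 0.37 for Ighv7-1 (edgeR adjusted p = 0.00304) and 2.79 ± 0.53 for Igkv7-33 (edgeR adjusted p = 0.0218). Ighv12-3 and Igkv4-91 also passed there, as given above, where 1.34% of all genes passed as higher.

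The genes outside the V loci whose log2 CPM ran most like the 4 V genes over all 21 libraries were chosen by their Pearson r among 22597 genes. For Ighv11-2, after Igkv14-126, these were Ebi3, a cytokine subunit (r = 0.895), and Pstpip2 (r = 0.886), and for Igkv14-126, after Ighv11-2, Agbl1 (r = 0.889) and Ebi3 (r = 0.881). For Ighv12-3 they were Ly96, a partner of the lipopolysaccharide receptor (r = 0.878), Sqstm1, an autophagy receptor (r = 0.873), and S100a11 (r = 0.872). For Igkv4-91 they were S100a11, a calcium-binding protein (r = 0.887), and Lsp1 (r = 0.879), followed by Ighv12-3. The libraries share subset and genotype, and no p is given. The constant gene Ighm was at 9542 to 17412 CPM in B-1a and 6406 to 11578 CPM in B-2 libraries of TET2-KO mice, and Igkc at 12768 to 14684 CPM and 13240 to 17309 CPM, so the ranges of both constant genes overlapped where those of Ighv11-2, Igkv14-126 and Igkv4-91 did not.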

How the data were processed

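RNA-seq libraries of 21 sorted peritoneal B cell samples were analysed from gene counts. The authors trimmed reads with fastp, aligned them with STAR to GRCm39 and deposited raw counts per gene from featureCounts 1.6.1 with GENCODE M32 (per the file headers, read pairs were counted without strand, and reads matching several genes or places were not counted). The versions of fastp and STAR are not given in the sources used here. The labels name poly-T selection and the study's methods amplified full-length cDNA, and no molecular identifiers were used. Such counting lowers V genes with near copies, and reads over a rearranged junction may be lost.

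Groups came from the labels, and the 4 V genes, the gene lists and the markers were chosen with earlier results of these data known. CPM was taken over each library's total count (9667187 to 24152518), and shares over all Ighv or all Igkv counts. Fold changes came from edgeR 4.0.16 (R 4.3.3): filterByExpr, TMM factors and the robust quasi-likelihood test, fitted on the groups compared, with Benjamini-Hochberg adjustment over all genes tested and a threshold of 0.05. Shares were tested by two-sided exact permutation in every V gene with a mean of at least 10 counts, and the correlations used log2(percent + 0.01). The smallest p is 0.0286 for 4 libraries against 4, 0.0571 for 4 against 3 and 0.133 for 4 against 2. DESeq2 1.42.0, other scalings, no filter, all groups in one fit, a replicate block, each library left out and the WT libraries numbered 1 and 2 left out were the alternatives. Scripts were tested on simulated data. The named genes were the 4 V genes, the highest other gene of each family, Ighv7-1 and Igkv7-33, the 3 genes most alike to each member, the leading V genes of each group, Ighm and Igkc. Other V genes leading a single library, Igkv5-48 among them, and the near copies were named after their values were seen. A gate marker and a marker list that holds it are not reported here.

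Numbers were taken to pair libraries where at least 3 pairs were present and the deviations from the group means correlated above 0.1 in every pair. This held between B-1a and B-1b cells of TET2-KO mice (0.201, 0.118 and 0.173 for numbers 1, 2 and 3). Between those of WT mice numbers 2 to 4 reached 0.195, 0.408 and 0.442 but number 1 only 0.0645, and B-2 cells of both genotypes shared only 2 numbers (0.191 and 0.41). The labels do not say what a number marks. No 2 libraries held identical counts. Gene positions and sequences were read from GRCm39.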

Additional observations from a re-analysis of the deposited data

Results flagged for a closer look

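In 48 sets of 4 libraries (6 V genes, as CPM and as shares, in each group of 4), Dixon's gap test at its 95% level marked 12 values. Chance marks about 1 in 20 of independent sets of normal values. These sets share libraries and were not independent, so the 12 cannot be read against that rate. The library labelled B-1b WT 1 stood above the other 3 B-1b WT libraries in all 4 members. It held 21.4% and 645 CPM of Ighv11-2, 33.0% and 995 CPM of Ighv12-3, 17.5% and 2016 CPM of Igkv14-126, and 34.5% and 3969 CPM of Igkv4-91. TET2-KO B-1a library 2 stood above its group in Ighv12-3, with 69.3% and 1728 CPM. The library labelled B-1a WT 2 stood above its group in the T15 genes, with 29.3 CPM of Ighv7-1 and 11.6 CPM of Igkv7-33.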

How the results depend on the processing

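The calls against B-2 cells of TET2-KO mice depended on the fit. With all 6 groups in one fit, 0 of the 4 genes passed in B-1a and 0 in B-1b cells, and without a filter on low counts 1 passed in B-1a cells, beside 780, 7 and 2740 of all genes in these fits (1414 and 372 as reported). Leaving out one library in turn left 3 to 4 passing in B-1a and 1 to 2 in B-1b cells, beside 620 to 2311 and 114 to 335 of all genes. As shares, 0 passed when every V gene with a count was tested, and 0 to 0 without one library, where the design cannot pass and says nothing of stability. Without a filter, 2 passed for B-1a against B-1b cells of TET2-KO mice and 2 for the TET2-KO effect in B-1a against that in B-1b cells, beside 100 and 144 of all genes, and DESeq2 called 1 in the former and 1 for TET2-KO against WT in B-2 cells, beside 88 and 169 of all genes, where edgeR as reported called 0 genes in each. In B-2 cells 0 to 2 passed without one library, the 2 being without WT 4, beside 576 of all genes. Between B-1a and B-1b cells of WT mice 3 passed once WT 1 and WT 2 were left out, beside 500 of all genes. In every other comparison and setting run the count of members passing kept within 1.5 times, and the cause of these changes was not tested.

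Without WT 1 and WT 2 these log2 differences turned sign: for TET2-KO against WT in B-1a cells Ighv11-2 to -0.55 and Igkv14-126 to -0.46; in B-1b cells Ighv11-2 to 2.26, Ighv12-3 to 1.27, Igkv14-126 to 1.81 and Igkv4-91 to 0.33. In B-2 cells Ighv11-2 turned to 0.79, Ighv12-3 to 0.43 and Igkv14-126 to 0.83. The difference between the effects turned to -2.81, -0.62, -2.27 and -2.27 in the order Ighv11-2, Ighv12-3, Igkv14-126, Igkv4-91. For B-1a against B-1b cells of WT mice Ighv12-3 turned to 1.88 and Igkv4-91 to 1.77, and their share differences to 10.04 and 9.32 points. For TET2-KO against WT in B-1b cells the share differences turned to 5.96 points for Ighv12-3 and 1.78 for Igkv4-91. The crossed correlations in B-1a cells turned to -0.318 for Ighv11-2 with Igkv4-91 and -0.860 for Ighv12-3 with Igkv14-126, and B-1b and B-2 cells had too few libraries left for a correlation. On the log2 scale the Ighv12-3 share difference turned to 0.63 for TET2-KO against WT in B-1b cells and to -0.082 for B-1a against B-1b cells of TET2-KO mice.

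With the replicate number as a block, which the labels do not tie to an animal, Ighv12-3 turned to -0.088 in B-1a cells (TET2-KO against WT) and to 0.21 in B-1b cells, and Ighv11-2 to 0.20 in B-1b cells. Igkv4-91 turned to -0.040 for the difference between the effects, and Ighv12-3 and Igkv4-91 to 0.69 and 0.58 for B-1a against B-1b cells of WT mice. Against B-2 cells the block left 4 genes passing in B-1a and 2 in B-1b cells, but in the latter Ighv11-2 passed (adjusted p = 0.0476) and Igkv4-91 did not (edgeR adjusted p = 0.0538). Over all genes it moved the calls from 7 to 48 for TET2-KO against WT in B-1a cells. Against B-2 cells of TET2-KO mice it moved them from 1414 to 1898 for B-1a and from 372 to 151 for B-1b cells.

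Leaving out one library in turn also turned the sign of some differences, given here as the lowest to the highest value. For TET2-KO against WT in B-1a cells, log2 differences ran Ighv11-2 -0.0027 to 1.26 and Ighv12-3 -1.46 to 1.96. For TET2-KO against WT in B-1b cells, log2 differences ran Ighv11-2 -0.99 to 1.85, Ighv12-3 -1.81 to 1.64, Igkv14-126 -1.22 to 1.44 and Igkv4-91 -2.64 to 0.55. For TET2-KO against WT in B-2 cells, log2 differences ran Ighv11-2 -3.14 to 0.79, Ighv12-3 -5.78 to 0.43 and Igkv14-126 -2.69 to 0.83. Between the TET2-KO effects of both B-1 subsets, log2 differences ran Ighv11-2 -1.46 to 1.88, Ighv12-3 -0.74 to 3.31, Igkv14-126 -0.98 to 2.26 and Igkv4-91 -1.82 to 1.40. For B-1a against B-1b cells of TET2-KO mice, log2 differences ran Ighv12-3 -1.65 to 2.35 and Igkv4-91 -0.88 to 0.45. For B-1a against B-1b cells of WT mice, log2 differences ran Ighv11-2 -0.54 to 2.81, Ighv12-3 -1.42 to 1.46, Igkv14-126 -0.52 to 2.73 and Igkv4-91 -1.28 to 1.33. In B-1a cells, share differences between TET2-KO and WT in points ran Ighv12-3 -4.04 to 18.2. In B-1b cells, share differences between TET2-KO and WT in points ran Ighv11-2 -1.35 to 5.40, Ighv12-3 -5.61 to 6.99, Igkv14-126 -0.577 to 5.43 and Igkv4-91 -7.99 to 2.86. In B-2 cells, share differences between TET2-KO and WT in points ran Ighv11-2 -8.11 to 1.39, Ighv12-3 -16.5 to 0.245 and Igkv14-126 -6.04 to 1.06. For B-1a against B-1b cells of TET2-KO mice, share differences in points ran Ighv12-3 -6.18 to 16.1 and Igkv4-91 -3.42 to 1.03. For B-1a against B-1b cells of WT mice, share differences in points ran Ighv12-3 -5.73 to 4.85 and Igkv4-91 -6.15 to 4.70.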
